A study of Arabidopsis thaliana with 6 samples.

Results

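The genes rpoA, rpoB, rpoC1 and rpoC2 of the plastid genome of Arabidopsis thaliana encode the core subunits of the plastid-encoded RNA polymerase. They were taken as all probe sets of the array whose only gene in the platform annotation is one of these names. Each gene had 1 such probe set, so the members are 4 of the 22746 probe sets tested and 4 of the 69 that carry a single plastid gene. The plants were des1-1 mutants (line SALK_03855) and wild type of the accession Col-0. Leaves were taken from soil-grown plants at 3 weeks of age, kept at 16 h of light and 8 h of dark, and each genotype gave 3 biological replicates, each on its own Affymetrix ATH1 array. DES1 is related to the enzymes that make cysteine, and the study asked which leaf transcripts differ when it is disrupted. Both genotypes grew with Hoagland medium, no treatment is named, and the mutant is represented by a single insertion allele. No probe set named DES1 alone, and its level in the mutant was therefore not looked at.

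Chloroplasts transcribe their genome with a bacterial-type enzyme, whose core is encoded in the plastid itself, and with phage-type enzymes encoded in the nucleus. The bacterial-type core needs nuclear-encoded sigma factors to find its promoters and transcribes most photosynthesis genes of the plastid. The genes rpoB, rpoC1 and rpoC2 lie next to each other and are transcribed together from a promoter used by the phage-type enzyme. The gene rpoA lies apart from them, at the end of a long cluster of ribosomal protein genes. Its product, the alpha subunit, is the scaffold on which the enzyme assembles. The products of rpoB (beta), rpoC1 (beta prime) and rpoC2 (beta double prime) form the catalytic body.

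All 4 genes had a lower mean in des1-1 leaves than in wild-type leaves, by 0.12 to 0.71 on the log2 scale, and 0 of the 4 passed the test in either direction. A gene passed where its adjusted p in limma, a linear model fitted to every probe set, was under 0.05 after Benjamini-Hochberg adjustment over all 22746. By that rule 0.387% of all probe sets passed, 0.0572% in the lower and 0.33% in the higher direction. At an unadjusted p under 0.05, rpoA and rpoC2 were lower (2 of 4), against 7.66% of all probe sets. In a whole leaf, fewer cells or plastids of a kind and less RNA in each of them cannot be told apart.

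**Figure D1:**
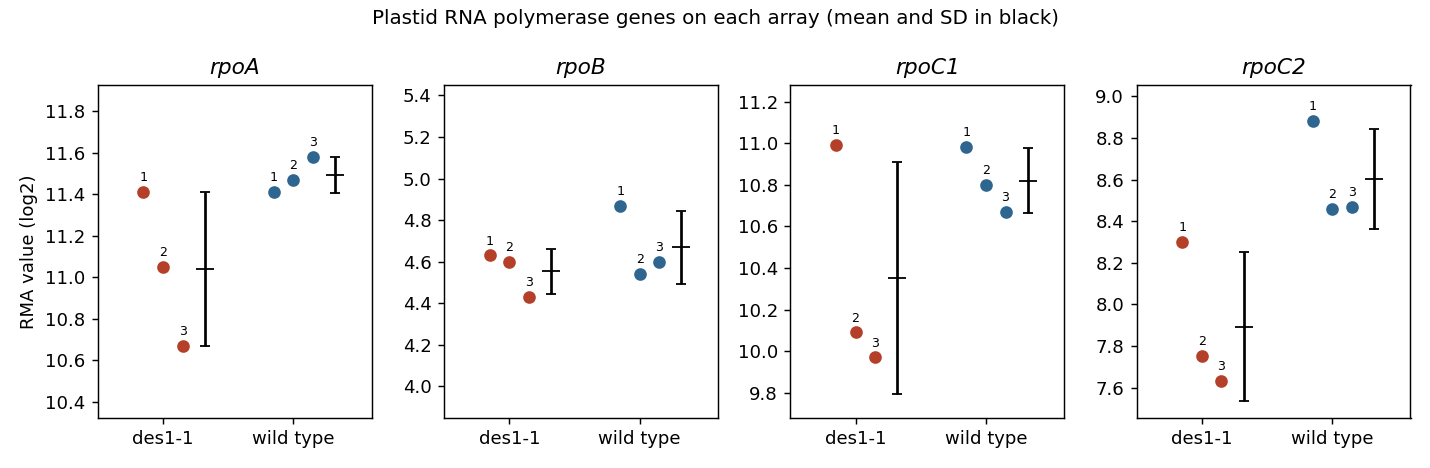
RMA values (log2, y axes of equal span but different position) of the 4 genes on each array, with des1-1 at the left and wild type at the right of each panel; numbers are replicate numbers and black marks are mean and SD (n = 3). In rpoC2 the 3 des1-1 arrays lie below the 3 wild-type arrays, in rpoA des1-1 1 is level with wild type 1 at 11.41, and in rpoC1 des1-1 1 (10.99) lies at the height of the wild type.

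The largest difference was that of rpoC2. Its log2 values were 8.30, 7.75 and 7.63 in des1-1 leaves, against 8.88, 8.46 and 8.47 in wild-type leaves. Every des1-1 array lay below every wild-type array, with des1-1 1 the closest to them. The means were 7.89 ± 0.36 in des1-1 and 8.60 ± 0.24 in the wild type (SD, n = 3 each), a log2 difference of -0.71 ± 0.18 SE with a 95% interval of -1.13 to -0.29. That is an array signal 0.611 times that of the wild type (limma adjusted p = 0.145). How far the array signal follows the amount of a plastid RNA was not tested. Among all probe sets, 8.66% lay without overlap on the lower side in des1-1.

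The gene rpoC1, for the neighbouring part of the catalytic body, had log2 values of 10.99, 10.09 and 9.97 in des1-1 leaves, against 10.98, 10.80 and 10.67 in wild-type leaves. The array des1-1 1 was the highest of all 6, while des1-1 2 and 3 lay well below every wild-type array, so the genotypes overlapped. The log2 difference was -0.47 ± 0.24 SE (95% interval -1.01 to 0.08, limma adjusted p = 0.400).

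The third gene of the cluster, rpoB, was dim. Its log2 values were 4.63, 4.60 and 4.43 in des1-1 leaves, against 4.87, 4.54 and 4.60 in wild-type leaves. On 5 of the 6 arrays the value lay under that array's lower quartile (4.69 to 4.78 over the arrays), a range in which RMA compresses differences. The genotypes overlapped, and the log2 difference of -0.12 ± 0.10 SE had an interval of -0.36 to 0.12 (limma adjusted p = 0.671). The low signal leaves the size of any difference in rpoB poorly measured.

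The alpha subunit gene rpoA had log2 values of 11.41, 11.05 and 10.67 in des1-1 leaves, against 11.41, 11.47 and 11.58 in wild-type leaves. The wild-type arrays were close together, des1-1 1 tied with the lowest of them, and des1-1 2 and 3 lay below. The means were 11.04 ± 0.37 in des1-1 and 11.49 ± 0.09 in the wild type (SD, n = 3 each). The log2 difference was -0.44 ± 0.16 SE with an interval of -0.82 to -0.07 (limma adjusted p = 0.249), a signal 0.735 times that of the wild type. The intervals of the 4 genes overlapped, and differences between members were not tested.

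The spread within des1-1 was wide for the 3 brighter genes. The SD of rpoC1 was 0.56 in des1-1 and 0.16 in the wild type (log2 values), and 0.176% of all probe sets had a des1-1 SD as large. For rpoA the share was 1.90% and for rpoC2 2.20%, whereas for rpoB it was 51.4%. A wide spread was not particular to the rpo genes, whose median des1-1 SD was 0.36. That median was 0.70 over the 8 measured genes listed around rpoA and 0.41 over 15 plastid ribosomal protein genes. It was 0.21 over all 65 other plastid probe sets. The median distance of the 4 genes from their wild-type means was -0.06 on des1-1 1, -0.58 on des1-1 2 and -0.83 on des1-1 3, against 0.18, -0.07 and -0.10 on wild type 1, 2 and 3. The array des1-1 1 was thus nearest to the wild type, and des1-1 3 farthest from it. Over all probe sets the same medians lay between -0.01 and 0.01.

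How the 4 genes stood to the threshold changed with the arrays included. Without des1-1 1, 3 of the 4 genes had an adjusted p under 0.05 in limma and were lower in des1-1. These were rpoC2 (log2 difference -0.91, adjusted p = 0.0214), rpoC1 (-0.79, adjusted p = 0.0175) and rpoA (-0.63, adjusted p = 0.041), while rpoB stood at -0.16 (adjusted p = 0.573). The share of all probe sets that passed in the lower direction also rose in that fit, to 2.40%. Without des1-1 3 the differences shrank to -0.58 for rpoC2, -0.28 for rpoC1, -0.26 for rpoA and -0.06 for rpoB, none past the threshold, with adjusted p of 0.347 to 0.913. The value of rpoB was -0.02 without wild type 1 and -0.18 without wild type 2.

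**Figure D2:**
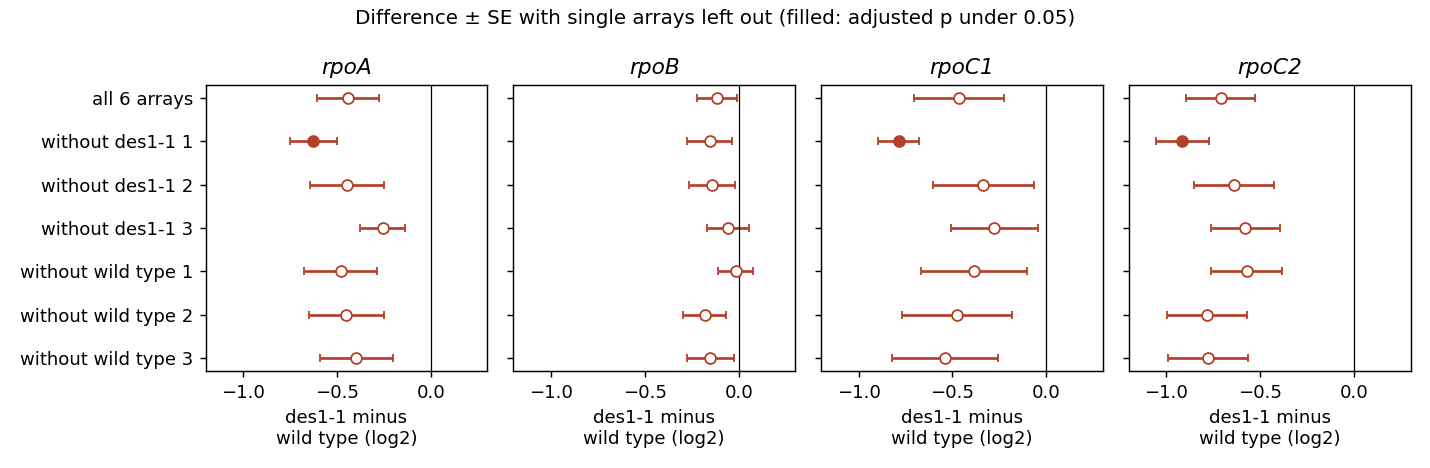
Log2 difference of des1-1 minus wild type with its limma SE (x axes) for each gene with all 6 arrays and with each array left out in turn (rows); filled points have an adjusted p under 0.05. The filled points are those of rpoA, rpoC1 and rpoC2 without des1-1 1, and every point lies below 0.

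The quality controls of the arrays overlapped between the genotypes. The array wild type 2 read 10.2 on the 25S ribosomal RNA control, against 5.49 to 6.20 on the other 5 arrays, and the rpo genes lay -0.14 to -0.02 from their wild-type means there, against -0.08 to 0.28 on wild type 1 and -0.15 to 0.09 on wild type 3. Without it the differences were -0.78 for rpoC2, -0.48 for rpoC1 and -0.45 for rpoA. The GAPDH control gave a 3 prime signal above its 5 prime signal by 1.1, 0.86 and 0.96 on the des1-1 arrays, against 0.80, 1.26 and 0.98 on the wild-type arrays, in log2 units. For actin this was 3.36, 2.71 and 2.94 in des1-1, against 3.51, 2.87 and 3.05 in the wild type. On both controls des1-1 1 had the highest value of its genotype, and the part of this in the rpo values was not tested. The leaf label was set against marker genes. The leaf genes RCA, PRK, LHCB4.1 and LHCB4.2 (4 of 7 listed) lay at 12.33 to 14.12 on all arrays, above the upper quartile of 7.79 to 7.89. The listed leaf genes RBCS1A, LHCB1.1 and CA1 were not analysed here. The root hair genes EXPA7 and EXPA18 lay at 4.73 to 5.74, under the array medians of 5.78 to 5.81. The flower markers AP3 and PI were not analysed here. Among senescence markers, WRKY53, WRKY6 and SWEET15 differed by -0.04 to 0.02 (log2, 0 of 3 past the test) and SAG12 was not analysed here.

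Along the plastid gene order, the measured genes on each side of the rpo genes gave unlike values. Next to rpoC2 lie rps2, for a protein of the small ribosomal subunit, and then atpI, atpH, atpF and atpA, for subunits of the ATP synthase. In rps2 the log2 values were 10.18, 9.91 and 9.78 in des1-1 leaves, against 10.47, 10.26 and 10.37 in wild-type leaves, a difference of -0.41 ± 0.11 SE (adjusted p = 0.158). The genotypes did not overlap in rps2, and des1-1 3 was the lowest array, as in the rpo genes. Of these 5 neighbours only rps2 was lowest on des1-1 3, while 3 were lowest on des1-1 2 and 1 (atpH) on des1-1 1. The ATP synthase genes differed by -0.54 for atpI, -0.87 for atpH, -0.46 for atpF and -0.29 for atpA. All 5 of these genes had an unadjusted p under 0.05 in limma, against 7.66% of all probe sets in the lower direction. Of the 5, 4 lay without overlap on the lower side, against 8.66% of all probe sets, and 0 passed after adjustment. Without des1-1 1, rps2 passed (1 of 5, log2 difference -0.52, adjusted p = 0.036). In that fit 2.40% of all probe sets passed in the lower direction. With any other single array left out, 0 of the 5 passed in the lower direction. On the other side of the cluster, beyond rpoB, the small cytochrome b6f gene petN stood at 0.00 (95% interval -0.25 to 0.25) and the photosystem II gene psbM at 0.03 (-0.24 to 0.29).

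Beside rpoA the pattern was alike in form. The ribosomal protein genes that precede it in the cluster had larger differences than rpoA itself, with values of -1.13 for rpl36, -1.50 for rpl14, -1.71 for rpl16, -1.14 for rps3, -1.43 for rpl22 and -0.76 for rps19. Of the 12 genes listed around rpoA, 8 had a probe set of their own. Of the 8, 6 were lower at an unadjusted p under 0.05 in limma, against 7.66% of all probe sets. After adjustment 0 of the 8 passed (adjusted p of 0.105 to 0.222 for those 6). Without des1-1 1, the des1-1 array closest to the wild type, 6 of the 8 passed in the lower direction, against 2.40% of all probe sets. The median of the 8 was then -1.45, against -1.14 with all arrays and -0.875 without des1-1 3. With any other single array left out, 0 of the 8 passed in the lower direction. In rpl36, the measured gene nearest to rpoA on that side, the log2 values were 8.66, 8.04 and 7.87 in des1-1 leaves, against 9.39, 9.65 and 8.91 in wild-type leaves. As in rpoA, des1-1 1 was the closest to the wild type and des1-1 3 the farthest. Of the 8 measured genes, 4 were lowest on des1-1 3 and 4 on des1-1 2. On the other side, the cytochrome b6f genes petD and petB stood at 0.06 (95% interval -0.29 to 0.41) and -0.03 (-0.23 to 0.17). Differences between a gene and its neighbours were not tested.

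**Figure D3:**
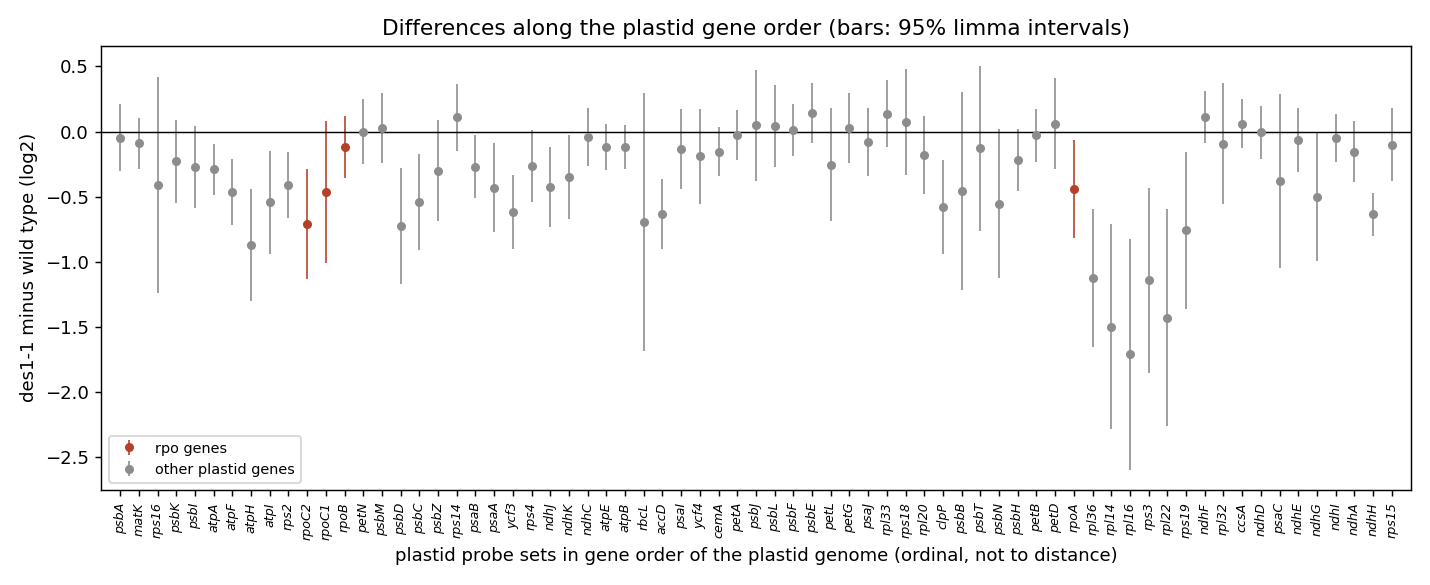
Log2 difference of des1-1 minus wild type (y axis, bars are 95% limma intervals) for the 69 plastid probe sets with a single gene, placed in plastid gene order without regard to distance (x axis); the rpo genes are in red and the others in grey. Values below 0 run from rpoC1 and rpoC2 through rps2 to the atp genes, and from rpoA through rpl36 to rps19, while petN, psbM, petD and petB lie within 0.06 of 0.

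**Figure D4:**
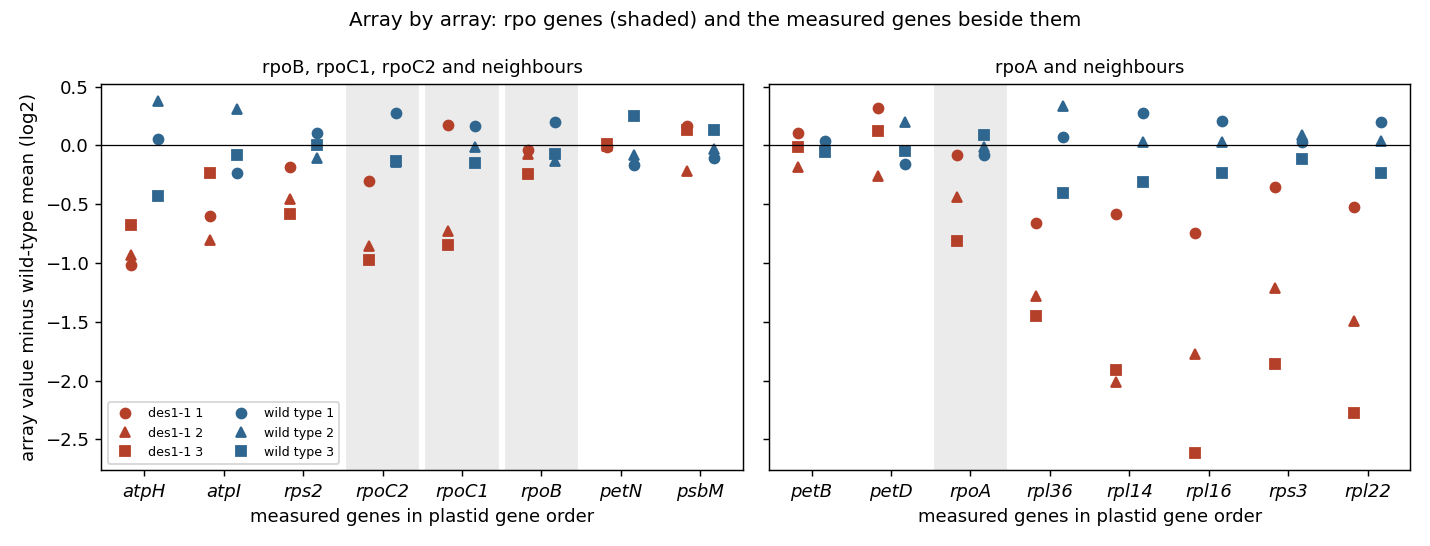
Value on each array minus the wild-type mean of the gene (y axis, log2) for the rpo genes (shaded) and measured genes beside them in plastid gene order (x axis), with des1-1 arrays in red and wild-type arrays in blue and 1 symbol for each replicate number. The arrays des1-1 2 and 3 lie lowest in rpoA, rpoC1, rpoC2 and the rpl genes, whereas in atpH des1-1 1 is the lowest.

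The array at which a gene was lowest also varied over the plastid genome. All 4 rpo genes were lowest on des1-1 3. Of the other 65 plastid probe sets, 43 were lowest on des1-1 2, 11 on des1-1 3, 4 on des1-1 1 and 5 on a wild-type array, with 2 ties. Over all 22746 probe sets des1-1 3 was also the array most often lowest, in 5152, against 3370 on des1-1 2 and 2791 on des1-1 1. Wild type 1, 2 and 3 were lowest in 4200, 4100 and 1976. The median distance of those 65 from the wild-type mean was -0.04, -0.43 and -0.13 on des1-1 1, 2 and 3. These counts describe 6 arrays and were not tested.

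Other groups of plastid genes gave the following counts. Among genes known to be transcribed by the phage-type polymerase, as the rpoB cluster is, accD (acetyl-CoA carboxylase subunit) and clpP (protease subunit) were measured, 2 of 4 listed. The gene accD had log2 values of 9.86, 9.52 and 9.79 in des1-1 leaves, against 10.54, 10.23 and 10.30 in wild-type leaves, a difference of -0.63 ± 0.12 SE (adjusted p = 0.0755). The gene clpP had 12.65, 12.14 and 12.30 in des1-1, against 12.90, 13.21 and 12.72 in the wild type, a difference of -0.58 ± 0.16 SE (adjusted p = 0.155). In both genes all des1-1 arrays lay below all wild-type arrays, and des1-1 2 was the lowest, unlike in the rpo genes. Neither passed the test with all arrays, and both passed in the lower direction without des1-1 1. In that fit 2.40% of all probe sets passed in the lower direction. With any other single array left out, neither passed in that direction.

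The photosynthesis genes of the photosystems, the cytochrome complex and Rubisco, many of them transcribed by the bacterial-type polymerase, had a median log2 difference of -0.14 over 27 probe sets. That median was -0.02 without des1-1 2, -0.04 without wild type 2, -0.24 without wild type 3 and -0.25 without des1-1 1. Of the 27, 0 passed and 20 were below 0. At an unadjusted p under 0.05 in limma, 4 of the 27 were lower, against 7.66% of all probe sets. The 4 were psbD (-0.73) and psbC (-0.54) of photosystem II, and psaA (-0.43) and psaB (-0.27) of photosystem I. The photosystem II genes psbA (-0.05) and psbB (-0.46) were not among them. In psbB, wild type 2 read 11.07, against 9.70 and 9.66 on wild type 1 and 3. The des1-1 arrays read 9.83, 9.49 and 9.73. The NDH genes had a median of -0.11 over 10 probe sets (-0.04 without des1-1 2 and -0.19 without des1-1 1). Among them ndhH was lower (1 of 10 past the test, limma adjusted p = 0.0113), against 0.0572% of all probe sets. That call was lost without des1-1 2 or any single wild-type array (adjusted p of 0.0535 to 0.0774) and held without des1-1 1 or 3. The ATP synthase genes had a median of -0.38 over 6 probe sets, with atpB and atpE, which lie elsewhere in the genome, at -0.12 each. The ribosomal protein genes had a median of -0.41 over 15 probe sets, and 0 passed in either group. Without wild type 2 the ribosomal median was -0.19 and without des1-1 2 it was -0.23. Without des1-1 1, 7 of the 15 passed in the lower direction, against 2.40% of all probe sets. With any other single array left out, 0 of the 15 passed in that direction. The rpo genes had a median of -0.46 (4 of 4 below 0), the other 65 plastid probe sets -0.22 (53 of 65 below 0), and all probe sets tested 0.00 (11371 of 22746 below 0). Without des1-1 1 the medians were -0.71 for the rpo genes and -0.27 for the other plastid probe sets. Of those 65, 12 then passed in the lower direction, against 2.40% of all probe sets. Without des1-1 3 the medians were -0.27 and -0.26. Without wild type 2, the array high on the 25S control, they were -0.46 and -0.12, and without des1-1 2 they were -0.39 and -0.12. In each fit that left out a single array other than des1-1 1, 0 or 1 of the 65 passed in the lower direction. No difference between these groups was tested.

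Of the nuclear genes that serve plastid transcription, few had a probe set of their own. RPOTmp, a phage-type polymerase sent to mitochondria and plastids, was measured as 1 of 3 such polymerases. Its log2 values were 5.41, 5.54 and 5.25 in des1-1 leaves, against 5.27, 5.43 and 5.48 in wild-type leaves, and they overlapped throughout. The log2 difference was 0.01 ± 0.10 SE (95% interval -0.22 to 0.23, adjusted p = 0.984). YS1, a pentatricopeptide repeat protein needed for editing of the rpoB transcript, was measured as 1 of 7 editing factors. It was dim, at 4.47, 4.52 and 4.40 in des1-1 leaves, against 4.41, 4.42 and 4.39 in wild-type leaves, with a log2 difference of 0.06 (95% interval -0.10 to 0.22, adjusted p = 0.777). The 6 sigma factors, the 12 proteins associated with the polymerase and the 6 plastid RNA turnover factors on the lists were not analysed here.

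The likeness of other genes to the rpo pattern was measured as the root mean square difference between array values, each probe set centred on its own mean over the 6 arrays. The 5 single-gene probe sets nearest to the mean of the 4 rpo genes were all nuclear. Of the 13513 single-gene probe sets, only 65 were plastid genes other than the rpo genes. Nuclear neighbours are thus what the make-up of the pool would mostly give. The 5 were TPP2 (0.035 log2 units away), AT3G24180 (0.036), CSA1 (0.058), AT5G41620 (0.060) and AT3G04760 (0.061), where a flat profile would be 0.300 away. TPP2, a gene of the large protease tripeptidyl peptidase II, had log2 values of 9.06, 8.61 and 8.39 in des1-1 leaves, against 9.24, 9.01 and 8.96 in wild-type leaves. TPP2 was picked by its likeness on these arrays, so its lowest array, des1-1 3, and its negative difference follow from the choice. Its difference of -0.38 did not pass the test (limma adjusted p = 0.303). The 5 genes differed by -0.41 to -0.33.

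The nearest profiles to each single rpo gene came from the same, mostly nuclear pool and were nuclear too. For rpoA they were AT3G10970 (0.066), AT5G23890 (0.069) and AT2G44760 (0.070). For rpoB they were AT5G28550 (0.016), AT2G32350 (0.024) and RALFL28 (0.025), where the flat profile of that dim gene was 0.133 away. For rpoC1 they were AT2G16860 (0.078), AT2G31130 (0.086) and AT1G02330 (0.100), and for rpoC2 AT2G03140 (0.044), AT5G36930 (0.057) and AT4G10060 (0.083). The nearest to rpoC2, AT2G03140, had log2 values of 6.96, 6.37 and 6.24 in des1-1 leaves, against 7.56, 7.16 and 7.04 in wild-type leaves. Its difference of -0.73 was close to that of rpoC2, which the way it was picked brings about, and did not pass the test (limma adjusted p = 0.155). With 13513 named probe sets and 6 arrays, close profiles are a description of these arrays.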

How the data were processed

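Leaf RNA of 3 des1-1 and 3 wild-type replicates was hybridised to ATH1 arrays. The values the authors deposited are on a log2 scale. Per the submitters' processing notes, RMA and affy were used, with no versions given. RMA brings arrays to a common distribution, so a shift shared by all genes is removed. Precision is limited by the number of arrays, which have no read depth.

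There are 22810 probe sets. The 64 controls were used for array quality only. Of the other 22746, the platform annotation gives 1 gene for 13513 and several for 503, and 8730 have no name here. The TAIR10.1 RefSeq table matched 13436 of the 13513 and gave the plastid gene order. The build behind the array annotation is unstated, so no coordinates are given.

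All 22746 were fitted with limma 3.58.1 in R 4.3.3 (genotype as the only term, default eBayes, two-sided). The fit was tested on simulated data. Tables used Python 3.11.15 with pandas 2.3.3, and plots matplotlib 3.10.9. Alternatives rescaled the arrays (3 ways), left out dim probe sets (the lowest 25% or 50%), used a trend or robust eBayes, weighted arrays, added a replicate block, or left out arrays. All rpo probe sets were named. Plastid and nuclear lists were given as counts, with up to 4 members by smallest unadjusted p (all of lists with up to 6 measured). Neighbours of the rpo genes were 2 such lists, and all measured ones beside rpoA were named, which was decided after their values were seen. The members and lists were chosen with earlier results of these data known.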

Additional observations from a re-analysis of the deposited data

How the results depend on the processing

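The differences of all 4 rpo genes stayed below 0 under every alternative run (16 each for rpoA, rpoC1 and rpoC2, and 14 for rpoB, which both filters on dim probe sets removed). Their median of -0.46 ran from -0.71 to -0.27. Leaving out single arrays gave log2 differences of -0.63 to -0.26 for rpoA, -0.79 to -0.28 for rpoC1 and -0.91 to -0.57 for rpoC2, with 0 to 3 rpo genes past the test and 20 to 765 of all probe sets, against 0 and 88 with all arrays. The 3 calls came without des1-1 1. Arrays sharing a replicate number had deviations from their genotype means that correlated at 0.17, -0.23 and 0.21 across probe sets, so the numbers are not taken to pair the arrays. With the replicate block, rpoC2 kept its difference of -0.71 and passed (adjusted p = 0.0362), 1 of 4 rpo genes, and 183 of all probe sets passed. Over its alternatives the adjusted p of rpoC2 ran from 0.0214 to 0.581. The count over all probe sets was 151 with an intensity trend and 9 without wild type 2 and des1-1 3 together. Leaving out a single array raised this count to 765 for des1-1 1 and lowered it to 20 to 46 for each other array. Why the count changed was not tested. Signal over background limits rpoB.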
